A study of Rattus norvegicus with 93 samples.

Results

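Cell cycle and DNA replication genes were followed through the healing of holes cut in the skull roof of the rat. The set was a list of 50 genes known to act in cell cycle entry, DNA replication and mitosis, looked up by symbol on the array. Of these, 48 were measured, of 15975 genes in all, and Cenpe and Ndc80 were not matched. By role they were grouped into 5 genes of cell cycle entry, 11 of DNA replication, 4 proliferation regulators and markers, and 28 of mitosis. The animals were male rats of 12 weeks. A trephine cut a circular hole of 4 or 8 mm in the calvarial bone, the disc was removed and the dura mater was left intact. Nothing was applied to either hole. The series names 8 mm a critical-size defect and 4 mm a defect below that size. The plug of healing tissue was cut out at days 1, 3, 5, 7, 10, 14 or 21, and total RNA of each defect was hybridised to a one-colour rat array, 93 arrays in all. In this order of days the 4 mm groups held 3, 8, 11, 5, 4, 5 and 6 arrays and the 8 mm groups 5, 11, 12, 5, 6, 6 and 6. No unoperated bone is described, and the earliest tissue is that of day 1. The plug is a mixture of cell types, and a level in it cannot tell fewer dividing cells from less of the transcript per cell.

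A cell that leaves rest first raises D-type cyclins, then cyclin E, and E2F factors released from the retinoblastoma protein switch on the genes of DNA synthesis. The Mcm proteins form the helicase loaded at replication origins, Pcna is the sliding clamp of the DNA polymerases, and Rrm1, Rrm2, Tyms and Tk1 supply deoxynucleotides. Later in the cycle B-MYB and FOXM1 act at CHR and CCAAT elements in the promoters of mitotic genes such as Ccnb1, Cdk1 and Plk1. In bone repair, dividing cells are known from the early granulation tissue and the periosteum.

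Promoters were examined because replication and mitosis genes are read here as 2 groups. RefSeq promoter windows of assembly GRCr8, 250 bases before to 50 after a start of the gene, were found for 37 of the 48 genes. Aurkb, Ccna2, Ccnd1, Ccne2, E2f1, Foxm1, Mcm4, Racgap1, Rrm2, Tpx2 and Ube2c had none. The 3 motifs below were searched on both strands: CHR (TTTGAA or TTCGAA), the CCAAT box (CCAAT) and E2F (TTTCCCGC or TTTGGCGC), none of which overlaps another in the stretches printed. The 250 bases before the start are shown, 5′ to 3′ on the gene's strand, for 3 mitosis genes, 2 replication genes and cyclin E1, with motif matches in capitals. The capitals ATTGG and GCGCCAAA are the CCAAT box and the E2F letters on the opposite strand.
Ccnb1 (chr2:33655226-33655475, minus strand): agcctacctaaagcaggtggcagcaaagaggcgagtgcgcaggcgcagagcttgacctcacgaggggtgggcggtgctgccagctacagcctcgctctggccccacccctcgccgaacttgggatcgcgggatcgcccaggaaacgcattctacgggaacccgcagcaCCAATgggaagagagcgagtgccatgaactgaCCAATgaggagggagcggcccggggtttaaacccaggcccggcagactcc
Cdk1 (chr20:19265043-19265292, plus strand): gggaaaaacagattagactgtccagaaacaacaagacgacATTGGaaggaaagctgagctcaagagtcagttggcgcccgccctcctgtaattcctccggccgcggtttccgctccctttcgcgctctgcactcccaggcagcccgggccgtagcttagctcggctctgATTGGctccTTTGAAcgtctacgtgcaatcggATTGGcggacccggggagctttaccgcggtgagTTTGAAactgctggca
Plk1 (chr1:186147408-186147657, plus strand): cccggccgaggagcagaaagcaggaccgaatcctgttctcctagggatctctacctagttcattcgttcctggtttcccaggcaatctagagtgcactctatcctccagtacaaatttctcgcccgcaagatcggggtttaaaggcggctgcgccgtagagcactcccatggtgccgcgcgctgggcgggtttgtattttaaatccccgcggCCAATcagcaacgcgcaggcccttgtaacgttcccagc
Mcm5 (chr19:13488563-13488812, plus strand): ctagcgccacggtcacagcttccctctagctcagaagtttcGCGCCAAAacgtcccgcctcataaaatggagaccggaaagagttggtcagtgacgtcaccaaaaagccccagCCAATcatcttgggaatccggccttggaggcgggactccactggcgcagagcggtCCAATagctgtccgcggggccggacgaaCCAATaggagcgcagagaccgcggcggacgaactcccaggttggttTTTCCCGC
Pcna (chr3:139955821-139956070, minus strand): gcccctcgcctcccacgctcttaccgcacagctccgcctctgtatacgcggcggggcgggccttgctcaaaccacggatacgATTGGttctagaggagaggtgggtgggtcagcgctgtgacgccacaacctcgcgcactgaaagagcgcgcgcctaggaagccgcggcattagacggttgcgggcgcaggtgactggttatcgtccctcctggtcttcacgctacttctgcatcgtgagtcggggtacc
Ccne1 (chr1:99927910-99928159, minus strand): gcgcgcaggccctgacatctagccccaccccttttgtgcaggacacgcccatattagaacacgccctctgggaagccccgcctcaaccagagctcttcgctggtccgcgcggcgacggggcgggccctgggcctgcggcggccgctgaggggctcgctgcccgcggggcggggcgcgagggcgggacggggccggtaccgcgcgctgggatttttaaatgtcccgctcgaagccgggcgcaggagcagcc
Positions count the base before the start used for the window as -1. For Cdk1 and Ccne1 this start lies inside the annotated gene, whose outer end is at 19265252 for Cdk1 and 99927986 for Ccne1. Part of each of their stretches is thus within the gene. The Cdk1 stretch held 2 CHR matches, at -72 to -67 and -16 to -11, and 3 CCAAT boxes. The Ccnb1 stretch held 2 CCAAT boxes, at -82 to -78 and -50 to -46. Plk1 had 1 CCAAT box, at -38 to -34, and its CHR match lay after the start at 7 to 12, outside the letters shown. Mcm5 held 3 CCAAT boxes and 2 E2F matches, at -209 to -202 and -8 to -1. Pcna held 1 CCAAT box, and the Ccne1 stretch held none of the motifs.
Over all windows, CHR letters were found in 17 of 24 mitosis genes (70.8%) and 3 of 9 replication genes (33.3%), against 19.5% of 27457 promoters of the same length. CCAAT boxes were found in 79.2% of mitosis genes, 66.7% of replication genes and 37.7% of all promoters. E2F letters were in 5 of 9 replication genes (Mcm3, Mcm5, Mcm6, Mcm7 and Tyms; 55.6%) and 0 of 24 mitosis genes, against 1.53% of all promoters. These are matches of letters only.

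The deposited values are ratios centred on 1 for most probes, and the lowest value is 0.01. Levels are given as log2 of this ratio: 0 is a gene's own middle level, the floor is -6.64, and levels of different genes cannot be set against each other. Of the 48 genes, 20 were above the floor on all arrays and 28 stood at it on at least 1; values at the floor have no order. Values are means ± SD, differences are log2 differences ± SE, and a change is called at an adjusted p of under 0.05 in limma's fit of all 14 groups, with Benjamini-Hochberg adjustment over all genes. The p-values measure the spread between these samples. In all, 7 arrays had a general level below -0.7, and replicate 18 of 8 mm day 3 was the lowest at -2.65. Among them 2 were day 1 arrays, replicate 13 of 4 mm and replicate 11 of 8 mm. By group, the floor held 10.1% to 10.4% of an array's values (median) at days 1 to 5 in both sizes and up to 21.2% later.

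Levels of these genes were mostly low at day 1, high at days 3 and 5 and low again at day 21, and 43 of the 48 had a higher mean at day 3 than at day 1. In 4 mm defects 28 of 48 genes had their highest mean at day 3 and 12 at day 7. In 8 mm defects 26 were highest at day 5 and 14 at day 3. The lowest mean was at day 21 for 21 genes in 4 mm and 30 in 8 mm defects. Over the 7 days, 32 of 48 genes changed in 4 mm defects and 34 in 8 mm defects (limma F test), while 33.5% and 40.2% of all genes did. The smallest adjusted p in 4 mm defects belonged to Ttk (9.29e-10), Plk1 (1.39e-09) and Ccnb1 (7.1e-08), and in 8 mm defects to Melk (4.32e-12), Ccna2 (6.31e-12) and Ccnb1 (1.62e-10). Ttk is a spindle checkpoint kinase, Melk a kinase of dividing cells and Ccna2 the cyclin of S phase and G2.

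**Figure D1:**
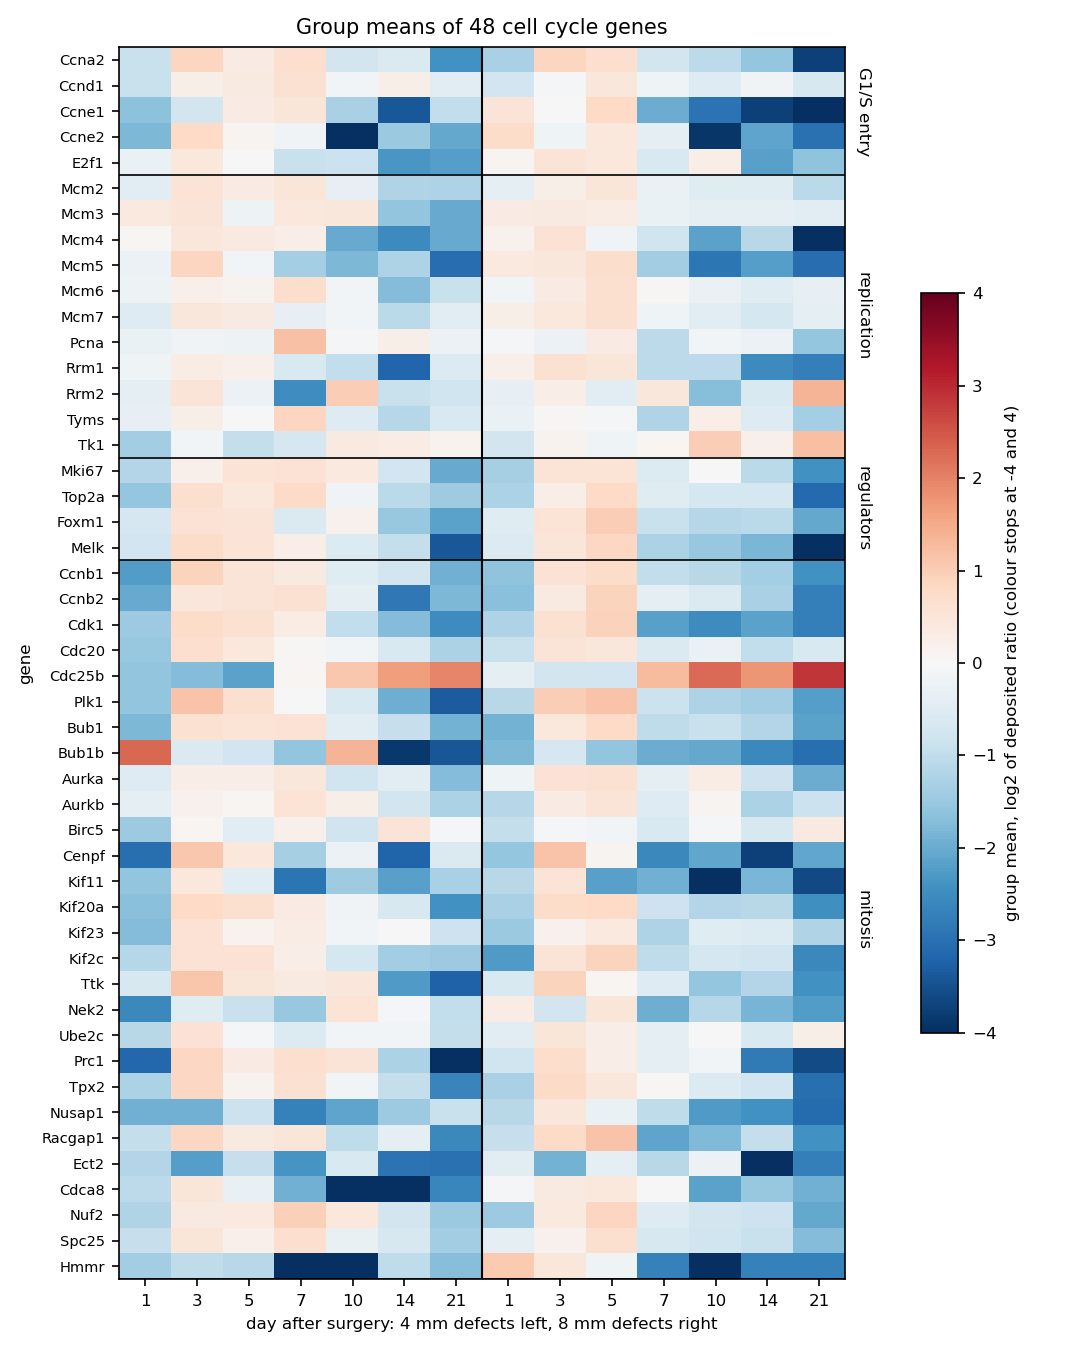
Mean log2 ratio of each of the 48 genes (rows, by role) in the 14 groups (columns, 7 days in 4 mm and then in 8 mm defects); the colour scale stops at -4 and 4. Of the 28 mitosis genes, 17 peak at day 3 in the smaller defects, and in the larger ones 9 peak at day 3 and 15 at day 5; Cdc25b and Birc5 are highest late. The replication genes show less contrast between day 1 and days 3 and 5.

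Against day 1, 18 of 48 genes rose by day 3 and 0 fell (6.44% of all genes called, 5.97% higher and 0.469% lower), and 21 rose by day 5 and 0 fell (19% of all genes called, 17.3% higher and 1.69% lower). The median difference of the 48 genes was 1.03 at day 3 and 0.95 at day 5, beside 0.20 and 0.34 over all genes. The rise was made up mostly of mitosis genes, 15 of 28 at either day, with median differences of 1.72 and 1.35. None of the 11 replication genes was called at day 3 or day 5 by limma, with 2 at an unadjusted p under 0.05 at day 3 and 1 at day 5. Each of these comparisons uses the same 8 arrays of day 1. The general level of the arrays also moved, with means of -0.51 and -0.41 at day 1 in 4 and 8 mm defects against 0.02 and -0.24 at day 3. Centring each array gave 19 calls at day 3 and 16 at day 5, all higher.

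Cyclin B1 (Ccnb1), the partner that activates Cdk1 at the onset of mitosis, showed the rise at the smallest p. At day 1 its log2 level was -1.59, -2.66 and -2.48 on the 4 mm arrays and -3.14, 0.25, -0.89, -0.62 and -3.58 on the 8 mm arrays. At day 3 it was 0.48 at the lowest, 0.79 at the median and 1.60 at the highest of 8 arrays in 4 mm, and -2.03 at the lowest, 0.66 at the median and 1.73 at the highest of 11 in 8 mm. The 4 mm groups did not overlap. The 8 mm day 1 levels were spread wide, with replicates 11 and 16 lowest, and 3 of the 11 day 3 arrays of 8 mm lay below the highest day 1 array. The difference was 2.64 ± 0.35 (adjusted p = 2.49e-08) at day 3 and 2.55 ± 0.34 (adjusted p = 5.64e-09) at day 5. From day 1 to day 21 the means were -2.24 ± 0.57, 0.88 ± 0.39, 0.52 ± 0.43, 0.37 ± 0.43, -0.49 ± 1.43, -0.74 ± 0.79 and -1.92 ± 1.01 in 4 mm defects. The 8 mm means were -1.60 ± 1.67, 0.56 ± 1.03, 0.75 ± 0.48, -0.98 ± 0.76, -1.11 ± 0.99, -1.36 ± 0.41 and -2.41 ± 0.42. Ccnb1 was highest at day 3 in 4 mm and day 5 in 8 mm defects and lowest at day 1 in 4 mm and day 21 in 8 mm defects.

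Its kinase Cdk1 followed the same course. At day 1 Cdk1 was -1.01, -1.33 and -2.02 in 4 mm and -2.78, 0.33, -0.47, -0.27 and -3.00 in 8 mm defects. At day 3 it was 0.21 at the lowest, 0.80 at the median and 1.33 at the highest in 4 mm and -2.29 at the lowest, 0.88 at the median and 1.85 at the highest in 8 mm defects. The 4 mm groups did not overlap, and the 8 mm groups did. Its rise was 2.03 ± 0.50 (adjusted p = 0.00371) at day 3 and 2.11 ± 0.49 (adjusted p = 0.000588) at day 5. The Cdk1 means over the days were -1.45 ± 0.52, 0.74 ± 0.39, 0.61 ± 0.44, 0.29 ± 0.34, -0.97 ± 2.19, -1.74 ± 1.22 and -2.50 ± 1.11 in 4 mm defects. They were -1.24 ± 1.54, 0.62 ± 1.11, 0.91 ± 0.43, -2.17 ± 2.25, -2.50 ± 2.27, -2.13 ± 0.83 and -2.73 ± 0.51 in 8 mm defects, where 1 day 10 array stood at the floor.

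Plk1, the polo-like kinase of mitotic entry and spindle assembly, was -0.85, -1.97 and -1.93 at day 1 in 4 mm and -1.99, 0.54, -0.42, 0.16 and -3.80 in 8 mm defects. At day 3 Plk1 was 0.60 at the lowest, 1.12 at the median and 2.05 at the highest in 4 mm and -1.48 at the lowest, 1.03 at the median and 2.06 at the highest in 8 mm defects. Again only the 8 mm groups overlapped. It rose by 2.40 ± 0.44 (adjusted p = 4.7e-05) at day 3 and 2.23 ± 0.43 (adjusted p = 3.66e-05) at day 5. Its means over the days were -1.59 ± 0.63, 1.14 ± 0.51, 0.64 ± 0.64, -0.03 ± 0.53, -0.61 ± 1.37, -1.94 ± 1.83 and -3.32 ± 1.80 in 4 mm defects. They were -1.10 ± 1.79, 0.98 ± 0.96, 1.13 ± 0.58, -0.85 ± 0.99, -1.24 ± 1.02, -1.38 ± 0.42 and -2.19 ± 0.90 in 8 mm defects. Plk1 was highest at day 3 in 4 mm and day 5 in 8 mm defects and lowest at day 21 in both sizes. Bub1, a spindle checkpoint kinase, rose by 2.35 ± 0.40 (adjusted p = 9.4e-06) at day 3 and 2.52 ± 0.39 (adjusted p = 2.82e-07) at day 5. The Bub1 means were -1.78 ± 0.36, 0.59 ± 0.39, 0.55 ± 0.66, 0.58 ± 0.28, -0.43 ± 1.82, -0.93 ± 0.65 and -1.88 ± 1.05 in 4 mm defects. Those of 8 mm defects were -1.89 ± 1.85, 0.42 ± 1.10, 0.81 ± 0.75, -1.02 ± 0.69, -0.89 ± 0.93, -1.19 ± 0.59 and -2.15 ± 0.85. Bub1 was highest at day 3 in 4 mm and day 5 in 8 mm defects and lowest at day 21 in both sizes. Aurkb, the kinase of the chromosomal passenger complex, was higher at day 3 by 0.99 ± 0.41 (adjusted p = 0.166) and at day 5 by 1.03 ± 0.40 (adjusted p = 0.0559), neither of which passed. The Aurkb means were -0.35 ± 0.42, 0.17 ± 0.43, 0.06 ± 0.35, 0.54 ± 0.25, 0.24 ± 1.04, -0.72 ± 0.46 and -1.26 ± 1.21 in 4 mm defects. The means in 8 mm defects were -1.13 ± 3.15, 0.33 ± 0.62, 0.52 ± 0.37, -0.52 ± 0.71, 0.10 ± 0.69, -1.27 ± 0.79 and -0.85 ± 0.69, and replicate 16 of 8 mm day 1 stood at the floor. Aurkb was highest at day 7 in 4 mm and day 5 in 8 mm defects and lowest at day 21 in 4 mm and day 14 in 8 mm defects.

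**Figure D2:**
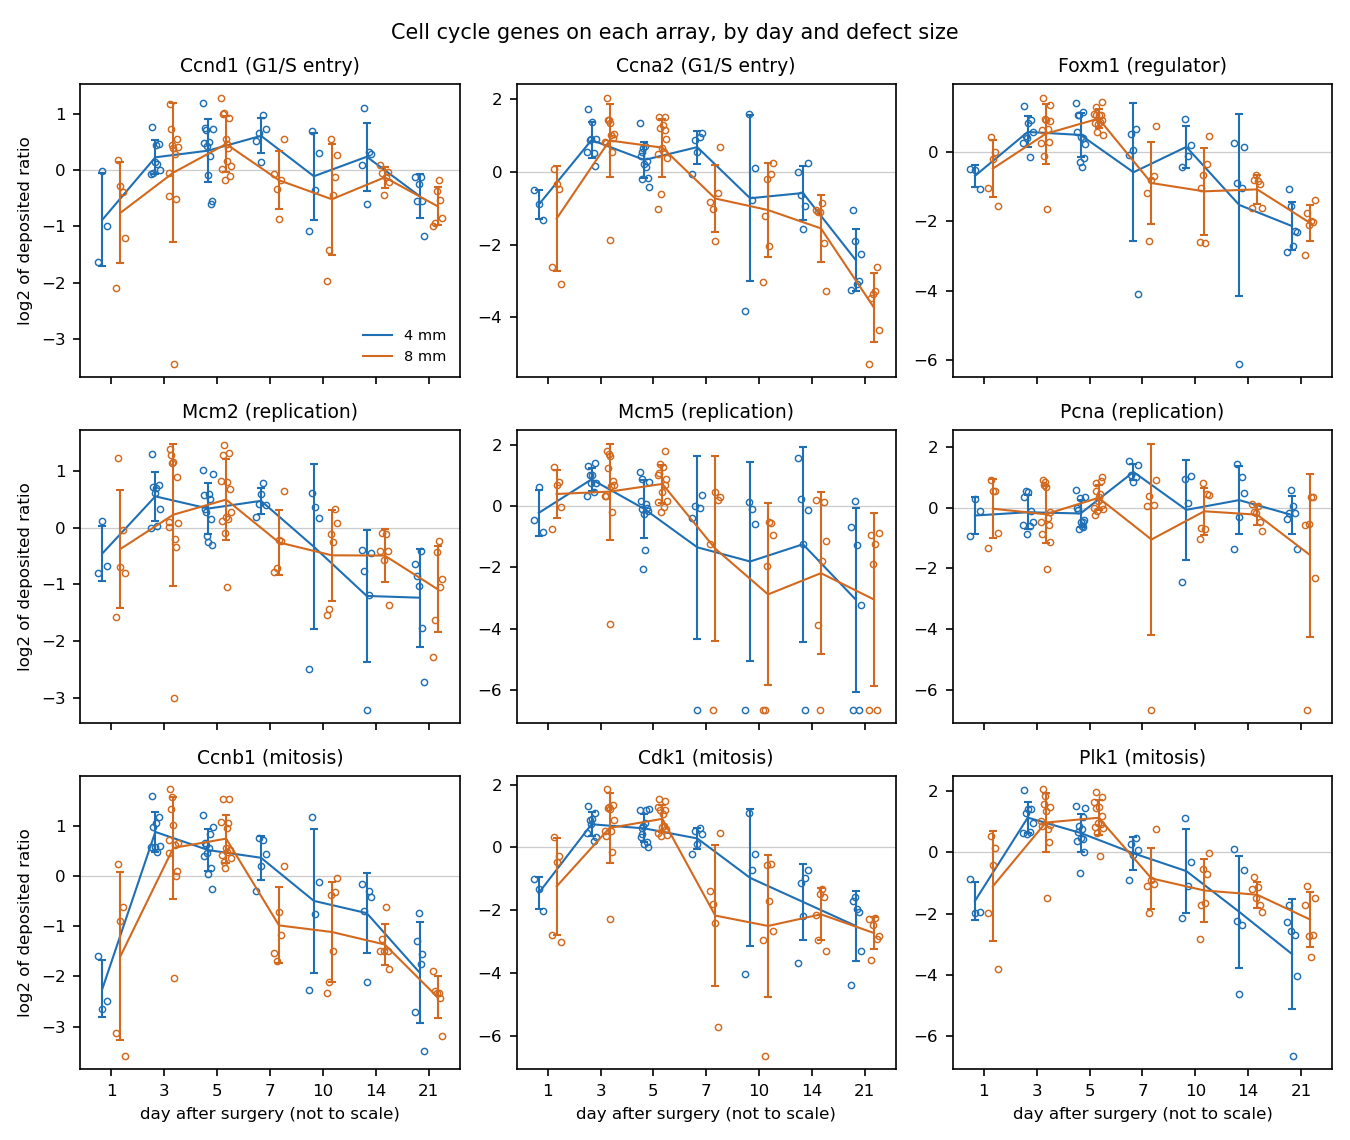
Log2 ratio of 9 genes on each array (points) with the group mean ± SD, over 7 days drawn at equal spacing; 4 mm defects are blue and 8 mm defects orange. Ccnb1, Cdk1 and Plk1 climb between day 1 and day 3, while Mcm2, Mcm5 and Pcna overlap widely between these days.

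The largest rises at day 3 were those of Cenpf, a kinetochore protein, at 3.38 ± 0.82 (adjusted p = 0.00328), and Prc1, which bundles the microtubules of the central spindle, at 2.74 ± 0.66 (adjusted p = 0.003). Cenpf was lost without replicate 13 of 4 mm day 1, at 2.47 ± 0.88 (adjusted p = 0.118), and Prc1 without replicate 18 of 4 mm day 1, at 1.87 ± 0.70 (adjusted p = 0.123). Of the 4 kinesins, Kif2c rose by 2.25 ± 0.52, Kif20a by 2.25 ± 0.40 and Kif23 by 1.99 ± 0.34, and Kif11 did not pass in the probe used, at 1.82 ± 1.52 (adjusted p = 0.663). Cyclin B2 (Ccnb2) rose by 2.26 ± 0.55, the spindle assembly factor Tpx2 by 2.09 ± 0.52 and the kinetochore protein Nuf2 by 1.71 ± 0.36. The anaphase activator Cdc20 rose by 1.80 ± 0.33 (adjusted p = 2.95e-05), Ttk by 1.63 ± 0.44 (adjusted p = 0.00961), and Ube2c, the ubiquitin-conjugating enzyme of the anaphase-promoting complex, by 1.29 ± 0.37 (adjusted p = 0.0162). Ttk did not pass without replicate 18 of 4 mm (adjusted p = 0.055) or replicate 16 of 8 mm day 1 (0.0502), nor Ube2c without replicates 13 (0.0556) or 17 (0.0649) of 4 mm or 16 of 8 mm day 1 (0.0764). Each of the 18 genes was above the day 1 mean on 17 to 19 of the 19 day 3 arrays, and with both sizes pooled the arrays of the 2 days overlapped for each.

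At day 5 the rises of Ccnb2 (2.55 ± 0.53), Cenpf (2.54 ± 0.80) and Ccnb1 led. Racgap1, a regulator of cytokinesis, rose by 1.68 ± 0.60 (adjusted p = 0.0361) and the kinetochore protein Spc25 by 1.10 ± 0.37 (adjusted p = 0.0266), which at day 3 had not passed (adjusted p = 0.0806 and 0.127). Between day 3 and day 5 limma called 0 of the 48 genes (1 at an unadjusted p under 0.05; 3.71% of all genes called, 3.32% higher and 0.394% lower), and the smallest p was that of Ttk, -0.72 ± 0.32 (adjusted p = 0.231), then of Tk1 and Kif11, -0.58 ± 0.29 and -1.79 ± 1.10. Of the 21 rises at day 5, 14 passed whichever of the 27 arrays in groups of 3 to 5 was left out. Racgap1 and Spc25 were lost without each of replicates 13, 17 and 18 of 4 mm and 11 and 16 of 8 mm day 1 (adjusted p 0.0644 to 0.089 and 0.0555 to 0.128). Melk was lost without replicates 13 or 18 of 4 mm or 11 or 16 of 8 mm day 1 (0.0657 to 0.106), and Cenpf without replicate 13 of 4 mm or 16 of 8 mm (0.0842 to 0.254). Tpx2 was lost without replicate 18 of 4 mm or 16 of 8 mm day 1 (0.0672 to 0.0714), and Foxm1 (0.0664) and Prc1 (0.179) without replicate 18 of 4 mm.

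The regulators and markers of proliferation moved with the mitosis genes. Mki67, the antigen used to stain dividing cells, had means of -1.17 ± 0.12, 0.20 ± 0.34, 0.56 ± 0.44, 0.57 ± 0.46, 0.38 ± 0.79, -0.77 ± 1.07 and -2.0 ± 1.48 in 4 mm defects. The 8 mm means were -1.33 ± 0.55, 0.55 ± 0.76, 0.56 ± 0.78, -0.53 ± 0.67, -0.03 ± 0.47, -1.07 ± 0.52 and -2.43 ± 0.78. Mki67 was highest at day 7 in 4 mm and day 5 in 8 mm defects and lowest at day 21 in both sizes. On the 3 arrays of 4 mm day 1 it was -1.16, -1.30 and -1.06, and the day 3 arrays were -0.04 at the lowest, 0.03 at the median and 0.85 at the highest, without overlap. It rose by 1.63 ± 0.32 (adjusted p = 0.000144) at day 3 and 1.81 ± 0.31 (adjusted p = 3.64e-06) at day 5. Top2a, the topoisomerase that untangles chromosomes, had means of -1.54 ± 0.27, 0.63 ± 0.42, 0.43 ± 0.50, 0.76 ± 0.59, -0.14 ± 1.36, -1.07 ± 1.53 and -1.43 ± 1.28 in 4 mm defects. They were -1.27 ± 2.14, 0.26 ± 1.33, 0.78 ± 0.43, -0.49 ± 0.65, -0.70 ± 1.02, -0.71 ± 0.22 and -3.10 ± 1.53 in 8 mm defects. Top2a was highest at day 7 in 4 mm and day 5 in 8 mm defects and lowest at day 1 in 4 mm and day 21 in 8 mm defects. Its rises were 1.85 ± 0.45 (adjusted p = 0.00324) and 2.01 ± 0.44 (adjusted p = 0.000258). Foxm1, the transcription factor of G2 and mitosis genes, had means of -0.68 ± 0.33, 0.59 ± 0.45, 0.50 ± 0.63, -0.58 ± 2.0, 0.16 ± 0.60, -1.52 ± 2.64 and -2.13 ± 0.70 in 4 mm defects. Those of 8 mm defects were -0.47 ± 0.82, 0.54 ± 0.87, 0.98 ± 0.27, -0.89 ± 1.19, -1.13 ± 1.25, -1.07 ± 0.42 and -2.04 ± 0.53. Foxm1 was highest at day 3 in 4 mm and day 5 in 8 mm defects and lowest at day 21 in both sizes. It was higher by 1.14 ± 0.44 (adjusted p = 0.121) at day 3, which did not pass, and rose by 1.32 ± 0.42 (adjusted p = 0.0182) at day 5. The kinase Melk was likewise higher at day 3 by 1.26 ± 0.47 (adjusted p = 0.103) and rose by 1.34 ± 0.46 (adjusted p = 0.0265) at day 5.

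Genes of cell cycle entry moved unevenly. Cyclin A2 (Ccna2) was -0.51, -0.89 and -1.32 at day 1 in 4 mm and -2.61, 0.06, -0.34, -0.48 and -3.07 in 8 mm defects. It rose by 1.96 ± 0.42 (adjusted p = 0.000492) at day 3 and 1.59 ± 0.40 (adjusted p = 0.00203) at day 5. Its means were -0.90 ± 0.40, 0.87 ± 0.50, 0.32 ± 0.50, 0.67 ± 0.45, -0.73 ± 2.27, -0.58 ± 0.73 and -2.43 ± 0.85 in 4 mm defects. The means in 8 mm defects were -1.29 ± 1.44, 0.86 ± 0.99, 0.66 ± 0.80, -0.73 ± 0.93, -1.05 ± 1.29, -1.56 ± 0.93 and -3.72 ± 0.95. Ccna2 was highest at day 3 in both sizes and lowest at day 21 in both sizes. Cyclin D1 (Ccnd1), which starts the passage through G1, was higher at day 3 by 0.91 ± 0.30 (adjusted p = 0.0541), just short of the threshold, and rose by 1.22 ± 0.29 (adjusted p = 0.00102) at day 5. The Ccnd1 means were -0.88 ± 0.82, 0.23 ± 0.30, 0.34 ± 0.56, 0.61 ± 0.31, -0.11 ± 0.77, 0.24 ± 0.61 and -0.46 ± 0.40 in 4 mm defects. The 8 mm means were -0.76 ± 0.90, -0.05 ± 1.23, 0.46 ± 0.49, -0.18 ± 0.51, -0.52 ± 0.98, -0.13 ± 0.18 and -0.64 ± 0.33, a flatter course than that of Ccna2 after day 7. Ccnd1 was highest at day 7 in 4 mm and day 5 in 8 mm defects and lowest at day 1 in both sizes. E2f1, an activating E2F factor, had means of -0.28 ± 0.30, 0.43 ± 0.31, 0.01 ± 0.87, -0.90 ± 0.61, -0.85 ± 1.01, -2.34 ± 2.45 and -2.22 ± 2.42 in 4 mm defects. They were 0.10 ± 0.12, 0.54 ± 0.22, 0.42 ± 0.39, -0.60 ± 0.83, 0.27 ± 3.63, -2.18 ± 0.56 and -1.61 ± 2.69 in 8 mm defects. Its difference was 0.57 ± 0.64 (adjusted p = 0.778) at day 3 and 0.31 ± 0.62 (adjusted p = 0.811) at day 5. E2f1 was highest at day 3 in both sizes and lowest at day 14 in both sizes. In 8 mm day 10 defects E2f1 ranged from -3.44 to 7.08. The E cyclins, which drive entry into S phase, stood at the floor on many late arrays. Ccne1 had means of -1.64 ± 1.22, -0.73 ± 2.43, 0.34 ± 0.68, 0.49 ± 0.93, -1.29 ± 1.57, -3.41 ± 3.00 and -0.99 ± 2.87 in 4 mm defects. Those of 8 mm defects were 0.51 ± 0.29, -0.02 ± 0.56, 0.80 ± 0.71, -1.97 ± 3.33, -2.94 ± 2.95, -3.72 ± 3.29 and -4.35 ± 2.58, with 3 of 6 arrays of 8 mm day 14 and of day 21 at the floor. Ccne1 was highest at day 7 in 4 mm and day 5 in 8 mm defects and lowest at day 14 in 4 mm and day 21 in 8 mm defects. Ccne2 had means of -1.80 ± 4.21, 0.78 ± 0.29, 0.12 ± 0.69, -0.14 ± 1.47, -4.08 ± 1.20, -1.49 ± 3.07 and -2.05 ± 2.72 in 4 mm defects. The means in 8 mm defects were 0.72 ± 1.56, -0.19 ± 2.33, 0.43 ± 0.87, -0.40 ± 0.49, -3.88 ± 3.07, -2.10 ± 2.32 and -2.98 ± 4.02. Ccne2 was highest at day 3 in 4 mm and day 1 in 8 mm defects and lowest at day 10 in both sizes. Neither was called at day 3 or day 5, where the differences were 0.19 ± 0.87 and 1.14 ± 0.84 for Ccne1 and 0.84 ± 0.91 and 0.82 ± 0.89 for Ccne2.

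Apart from Tk1, called higher at days 10, 14 and 21, the replication genes showed no called rise against day 1. Their median difference from day 1 was 0.44 at day 3 and 0.27 at day 5, and at day 5 it turned to -0.13 with each array centred and -0.20 with quantile normalization. Mcm2, a helicase subunit, had means of -0.45 ± 0.49, 0.55 ± 0.43, 0.34 ± 0.45, 0.48 ± 0.23, -0.34 ± 1.46, -1.21 ± 1.17 and -1.24 ± 0.87 in 4 mm defects. The 8 mm means were -0.38 ± 1.05, 0.23 ± 1.26, 0.50 ± 0.71, -0.26 ± 0.57, -0.49 ± 0.80, -0.49 ± 0.47 and -1.09 ± 0.76. Mcm2 was highest at day 3 in 4 mm and day 5 in 8 mm defects and lowest at day 21 in both sizes. Its day 1 levels were -0.80, 0.11 and -0.67 in 4 mm and -1.57, 1.22, -0.69, -0.04 and -0.80 in 8 mm, within the day 3 range of -3.02 to 1.39 in 8 mm. The difference was 0.81 ± 0.36 (adjusted p = 0.222) at day 3 and 0.83 ± 0.35 (adjusted p = 0.087) at day 5. Mcm5 had means of -0.23 ± 0.76, 0.87 ± 0.38, -0.10 ± 0.95, -1.35 ± 2.97, -1.81 ± 3.24, -1.25 ± 3.18 and -3.05 ± 3.00 in 4 mm defects. They were 0.39 ± 0.79, 0.47 ± 1.56, 0.72 ± 0.62, -1.39 ± 3.02, -2.88 ± 2.96, -2.19 ± 2.65 and -3.04 ± 2.81 in 8 mm defects, with at least 1 array at the floor in each group from day 7 on. Mcm5 was highest at day 3 in 4 mm and day 5 in 8 mm defects and lowest at day 21 in both sizes. Its difference was 0.59 ± 0.90 (adjusted p = 0.862) at day 3. Pcna had means of -0.26 ± 0.62, -0.15 ± 0.55, -0.19 ± 0.45, 1.17 ± 0.28, -0.08 ± 1.63, 0.24 ± 1.10 and -0.25 ± 0.63 in 4 mm defects. Those of 8 mm defects were -0.04 ± 0.98, -0.22 ± 0.93, 0.32 ± 0.41, -1.05 ± 3.15, -0.12 ± 0.77, -0.23 ± 0.33 and -1.56 ± 2.67; its difference at day 3 was -0.04 ± 0.52 (adjusted p = 0.988). Pcna was highest at day 7 in 4 mm and day 5 in 8 mm defects and lowest at day 1 in 4 mm and day 21 in 8 mm defects. Rrm2, the regulated subunit of ribonucleotide reductase, had means of -0.36 ± 0.32, 0.51 ± 0.64, -0.24 ± 0.60, -2.47 ± 2.50, 0.98 ± 0.29, -0.88 ± 2.07 and -0.79 ± 2.98 in 4 mm defects. The means in 8 mm defects were -0.34 ± 1.19, 0.26 ± 0.69, -0.46 ± 0.68, 0.47 ± 1.59, -1.71 ± 3.50, -0.61 ± 2.80 and 1.35 ± 1.59. Rrm2 was highest at day 10 in 4 mm and day 21 in 8 mm defects and lowest at day 7 in 4 mm and day 10 in 8 mm defects. It differed by 0.74 ± 0.74 (adjusted p = 0.741) at day 3. Of the rest, Tk1, a thymidine kinase, was highest at 1.06 ± 0.41 (adjusted p = 0.123) at day 3, and Mcm7 (0.58 ± 0.33), Tyms, the thymidylate synthase (0.44 ± 0.53), Rrm1 (0.43 ± 0.71), Mcm6 (0.42 ± 0.36), Mcm4 (0.41 ± 0.63) and Mcm3 (0.07 ± 0.42) did not pass either.

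**Figure D3:**
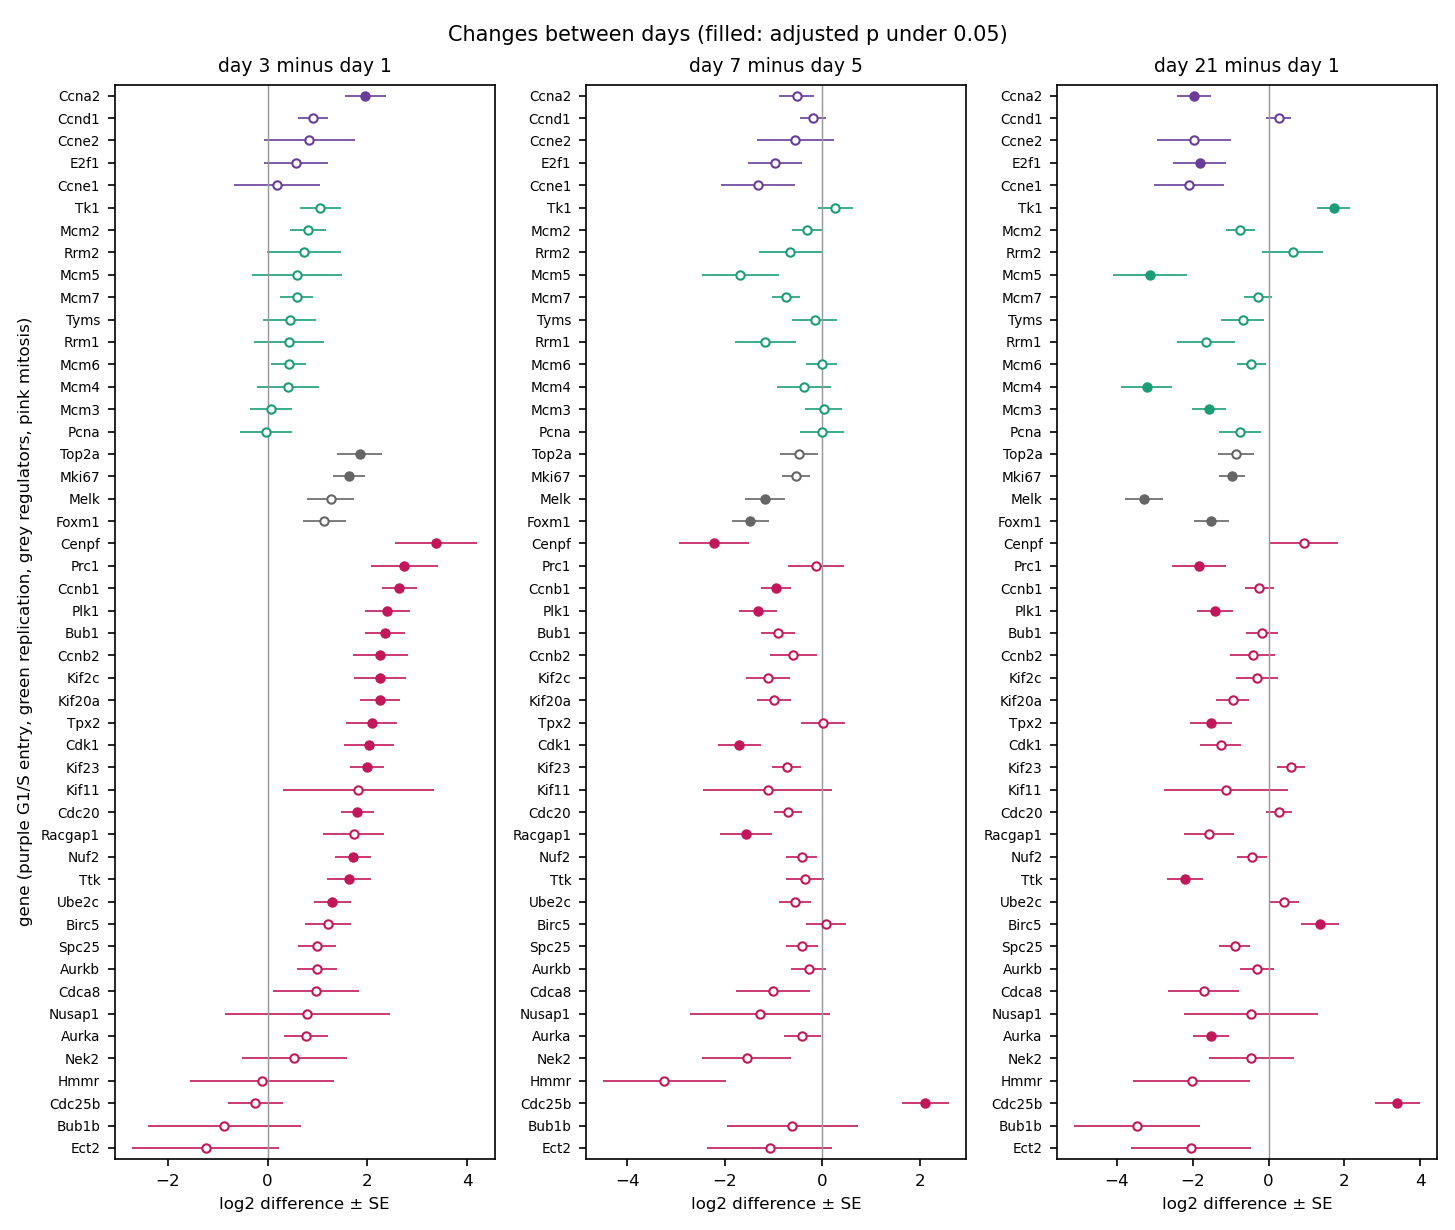
Log2 difference ± SE of each gene for day 3 minus day 1, day 7 minus day 5 and day 21 minus day 1, grouped by role; filled points passed an adjusted p of 0.05. At day 3 the 18 filled points lie above 0 and none belongs to replication, and at day 21 13 of the 16 filled points lie below 0.

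The contrast between the 2 classes was read on each array as the mean log2 level of the 11 replication genes minus that of the 28 mitosis genes. A gap of 0 means that both classes stand, on average, equally far from their own middle levels. Floor values weigh on these means, and more so for mitosis. Bub1b, Kif11, Nusap1, Ect2 and Hmmr stood at the floor on 27 to 30 arrays, and among replication genes Mcm5 did so most often, on 11. The gap thus also depends on the floor values in each class. At day 1 the mean of the replication genes was -0.31 ± 0.43 in 4 mm and -0.05 ± 0.69 in 8 mm defects, and that of the mitosis genes -1.38 ± 0.60 and -0.95 ± 1.20. At day 3 the replication means were 0.34 ± 0.37 and 0.29 ± 0.78 and the mitosis means 0.21 ± 0.37 and 0.32 ± 0.48. The gap on the 3 arrays of 4 mm day 1 was 0.25, 1.00 and 1.95, and on those of 8 mm it ran from 0.07 over a median of 0.64 to 2.56, so replication stood above mitosis on each of the 8 arrays. The mean gap was 1.07 ± 0.85 and 0.91 ± 0.98 at day 1, 0.13 ± 0.36 and -0.03 ± 0.41 at day 3, and 0.00 ± 0.46 and -0.02 ± 0.28 at day 5. Without 1 array the day 1 gap was 0.63 in 4 mm (replicate 17) and 0.49 in 8 mm defects (replicate 16). The later means in 4 and 8 mm defects were 0.30 ± 0.58 and 0.46 ± 0.65 at day 7, 0.26 ± 0.45 and 0.36 ± 0.52 at day 10, -0.03 ± 1.20 and 0.64 ± 0.37 at day 14, and 0.70 ± 0.63 and 0.82 ± 0.85 at day 21. At day 21 both classes were low, at -1.06 ± 0.60 and -1.14 ± 0.44 for replication and -1.76 ± 0.75 and -1.97 ± 0.49 for mitosis. The 4 mm gap had no steady course after day 5: without single arrays it was 0.15 to 0.53 at day 7, 0.05 to 0.37 at day 10 and -0.39 to 0.32 at day 14, with the lowest value without replicates 14, 12 and 16 and the highest without 10, 11 and 17. In 8 mm defects it was 0.22 without replicate 14 of day 7. These means are descriptions of the listed genes and carry no test, and the arrays of neighbouring days overlap.

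**Figure D4:**
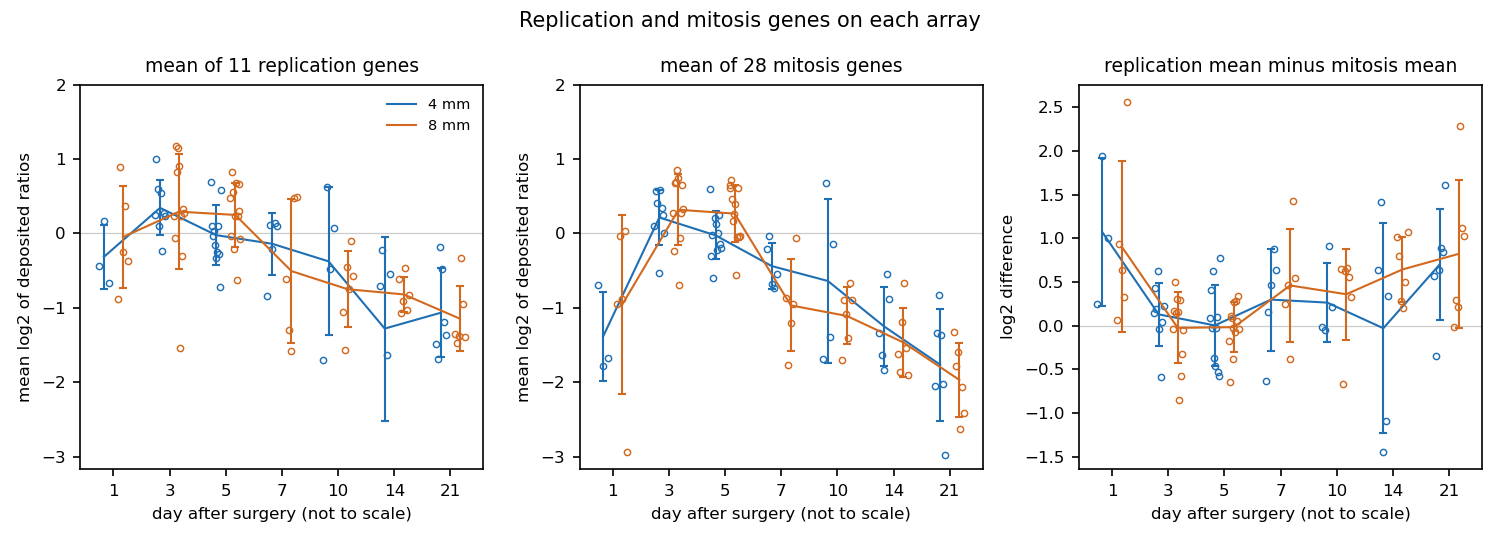
Mean log2 ratio of the 11 replication genes and of the 28 mitosis genes on each array, and their difference, over 7 days drawn at equal spacing, with group means ± SD; 4 mm defects are blue and 8 mm defects orange. The difference is above 0 on the 8 day 1 arrays, centres near 0 at days 3 and 5 and has means of 0.70 and 0.82 at day 21.

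Several mitosis genes did not pass at day 3 in the probe used, the one with the largest interquartile range, and for some the probes of a gene disagreed. The checkpoint gene Bub1b had a probe at the floor on 27 arrays, with a day 3 difference of -0.87 ± 1.54. Its other probes rose by 2.18 ± 0.42 (adjusted p = 0.000156) and 1.91 ± 0.36 (0.000109). Ect2, an activator of cytokinesis, was -1.24 ± 1.47 in the probe used and rose by 2.29 ± 0.43 (7.29e-05) in the other. Kif11, the kinesin that separates the spindle poles, was 1.82 ± 1.52 in a probe at the floor on 29 arrays and rose by 3.45 ± 1.00 (0.0252) in the other. With the probe that had the fewest floor values, a choice made after seeing the data, 19 of 28 mitosis genes and 0 of 11 replication genes rose at day 3. The mitotic kinase Nek2 (0.54 ± 1.05), Nusap1 of the spindle (0.80 ± 1.65), Hmmr (-0.11 ± 1.43), Cdca8 (0.97 ± 0.87) and Birc5 (1.21 ± 0.46) of the chromosomal passenger complex and Aurka, a centrosome kinase (0.77 ± 0.44), did not pass. Probes also parted at day 21: Racgap1 was -1.58 ± 0.66 in the probe used and 1.28 ± 0.39 (adjusted p = 0.0104) in another, and Rrm1, Rrm2, Ccna2, Ccnd1, Ccne2 and Cenpf likewise had probes of opposite sign. Each probe was also fitted by itself, with p adjusted over all 41090 probes, named or not. Of the genes called at day 3, 6 had several probes, and for 2 no other probe passed: Top2a, at 0.86 ± 0.53 (adjusted p = 0.526), and Ccna2, at 2.47 ± 0.80 (0.055). At day 5 this held for 3 of 7, Top2a at 0.16 ± 0.52 (0.896), Ccnd1 at 0.45 ± 0.29 (0.336) and Ccna2 at 1.83 ± 0.77 (0.101).

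By day 7 the balance had shifted. Against day 5, 1 gene rose and 7 fell (10.5% of all genes called, 4.73% higher and 5.78% lower; median difference -0.63, over all genes -0.13). Cdk1 was at 0.00 at the lowest, 0.61 at the median and 1.22 at the highest at day 5 in 4 mm and 0.38 at the lowest, 0.88 at the median and 1.56 at the highest in 8 mm defects. At day 7 the 4 mm arrays read -0.22, 0.51, 0.11, 0.61 and 0.44 and the 8 mm arrays -1.39, -1.79, -2.41, -5.72 and 0.45, so that 4 of the 5 arrays of 8 mm lay below all of the 4 mm arrays. Cdk1 fell by 1.70 ± 0.44 on the log2 scale (adjusted p = 0.00619), Cenpf by 2.22 ± 0.72 and Racgap1 by 1.56 ± 0.54, the 3 largest falls. These differences average both sizes, which did not always move alike. In the probe used, the Racgap1 mean went from 0.36 to 0.47 in 4 mm and from 1.14 to -2.11 in 8 mm defects. The Cenpf mean went from 0.44 to -1.33 and from 0.10 to -2.58, and that of Plk1 from 0.64 to -0.03 and from 1.13 to -0.85. The falls of Cenpf and Racgap1 rest on 1 probe each: the other Cenpf probe was at -0.93 ± 0.75 (adjusted p = 0.488), and the other Racgap1 probes at -0.08 ± 0.32 (0.919) and 0.62 ± 0.36 (0.306). Foxm1 fell by 1.47 ± 0.38 (0.00675), Plk1 by 1.32 ± 0.39 (0.0173), Melk by 1.18 and Ccnb1 by 0.94 ± 0.31 (0.0358). Of the 7 falls, those of Cdk1 and Plk1 passed whichever array was left out. Foxm1 did not pass without replicate 15 of 4 mm day 7, at -1.03 ± 0.36 (adjusted p = 0.0609), an array at -4.11. Cenpf was lost without replicates 10 or 13 of 4 mm or 14 of 8 mm day 7 (adjusted p 0.0781 to 0.129). Ccnb1 was lost without replicates 10, 13 or 15 of 4 mm or 10, 12 or 14 of 8 mm (0.053 to 0.0811), and Racgap1 without any of the 5 arrays of 4 mm or replicates 13, 14 or 15 of 8 mm (0.051 to 0.132). Melk was lost without any of the day 7 arrays but replicate 15 of 8 mm, or 1 of 8 arrays of other days (0.05 to 0.101). Without replicate 15 of 8 mm day 7, 10 genes passed.

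Against day 1, 12 genes were still higher at day 7 and 0 lower (21.4% of all genes called, 16.6% higher and 4.84% lower): Prc1, at 2.13 ± 0.74, Ccnb2, at 1.96 ± 0.61, Cdc25b, at 1.66 ± 0.61, Bub1, Tpx2, Ccnb1, Nuf2, Top2a, Mki67, Kif20a, Kif23 and Ccnd1. Bub1, Ccnb1, Ccnb2, Mki67 and Nuf2 passed whichever array was left out. The other 7 were lost without 1 of replicates 13, 17 or 18 of 4 mm or 11, 13 or 16 of 8 mm day 1, or 12 to 15 of 4 mm or 13 to 15 of 8 mm day 7 (adjusted p 0.0506 to 0.266). The count was 7 without replicate 16 of 8 mm day 1 or 15 of 8 mm day 7. The other probe of Top2a was at -0.48 ± 0.59 (adjusted p = 0.62) and that of Ccnd1 at 0.78 ± 0.33 (0.082).

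At day 10, 8 genes were higher and 4 lower than at day 1 (16.6% of all genes called, 10.4% higher and 6.15% lower): Cdc25b, at 2.66 ± 0.62, Prc1, at 2.18 ± 0.75, Tk1, at 1.73 ± 0.46, Mki67, Kif23, Nuf2, Ccnb1 and Cdc20 rose. Hmmr fell by 5.14 ± 1.61, Ccne2 by 3.44 ± 1.03, Cdca8 by 2.68 ± 0.98 and Mcm4 by 2.19 ± 0.71, each a gene with values at the floor. The other probe of Ccne2 was at -0.24 ± 0.74 (adjusted p = 0.873). The split was 11 higher and 2 lower with quantile normalization, and 15 higher and 0 lower without the 7 low arrays. The count was 5 without replicate 17 of 4 mm day 1 and 7 without replicate 13 of 4 mm or 16 of 8 mm day 1. Cdc25b, Tk1, Mki67 and Kif23 passed whichever array was left out; each of the other 8 was lost without at least 1 of the 8 day 1 arrays or, for 6 of them, at least 1 of the 4 arrays of 4 mm day 10 (adjusted p 0.0518 to 0.273).

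At day 14, 4 genes were higher and 5 lower (21% of all genes called, 12.6% higher and 8.41% lower). Cdc25b (2.70 ± 0.60), Kif23 (1.33 ± 0.37), Tk1 (1.31 ± 0.45) and Ccnd1 (0.87 ± 0.33) rose. Ccne1 fell by 3.00 ± 0.95, Rrm1 by 2.88 ± 0.77, E2f1 by 2.17 ± 0.70, Mcm4 by 1.93 and Mcm3 by 1.32. The fall of Rrm1 did not hold for its probe with the fewest floor values, at 0.67 ± 0.37 (adjusted p = 0.191). Nor did the other probes of Ccne1 (-0.99 ± 0.47, 0.128), E2f1 (-0.40 ± 0.34, 0.432) or Ccnd1 (0.32 ± 0.32, 0.527) pass. E2f1 lay under the day 1 arrays on 11 of 11 arrays, yet did not pass without replicate 17 of 4 mm day 14, at -1.63 ± 0.68 (adjusted p = 0.0738), where it stood at the floor. Tk1, Mcm4 and Mcm3 were lost without 1 of replicates 13, 17 or 18 of 4 mm or 12, 13 or 16 of 8 mm day 1 or, for the Mcm genes, 15 to 18 of 4 mm day 14 (adjusted p 0.0512 to 0.142), and Ccnd1 without any 1 of 16 arrays of days 1 to 14 (0.0501 to 0.2). The day 14 count was 5 without replicate 13 of 4 mm day 1, and with each array centred it was 4 higher and 9 lower.

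Steps between the late days were small. From day 7 to day 10 limma called 0 of the 48 genes (4 at an unadjusted p under 0.05; 0.213% of all genes called, 0.0313% higher and 0.182% lower), with the smallest p for Ccne2, at -3.71 ± 0.95 (adjusted p = 0.0697), Mcm4 and Cdca8. From day 10 to day 14 it called 0 (13 unadjusted; 1.03% of all genes called, 0.394% higher and 0.638% lower); Mki67 stood at -1.10 ± 0.33 (adjusted p = 0.0736), Prc1 at -2.26 ± 0.68 and E2f1 at -1.97 ± 0.66. From day 14 to day 21, 5 genes fell and 0 rose (1.52% of all genes called, 0.482% higher and 1.04% lower): Melk by 2.54 ± 0.45, Ccna2 by 2.0 ± 0.40, Tpx2 by 1.96 ± 0.50, Kif20a by 1.56 ± 0.39 and Mki67 by 1.30 ± 0.31. The other probe of Ccna2 was at 0.41 ± 0.77 (adjusted p = 0.861) and that of Mki67 at -0.65 ± 0.30 (0.296). In the probes used, leaving out single arrays lost none of the 5, and 10 passed without replicate 17 of 4 mm day 14. With quantile normalization, or with values under 0.25 raised to 0.25, 0 passed.

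At day 21, 13 genes stood lower than at day 1 and 3 higher (26.2% of all genes called, 13.4% higher and 12.8% lower); the median difference was -0.92 over the 48 genes and -0.18 over all genes. Genes called lower were 2 of 5 of entry, 3 of 11 of replication, 3 of 4 regulators and 5 of 28 of mitosis. The mitosis share is not far from the 12.8% of all genes called lower. Melk was -0.63, -0.72 and -0.95 at day 1 in 4 mm and -1.81, 1.40, 0.24, 0.28 and -2.86 in 8 mm defects. At day 21 it was -5.83 at the lowest, -3.84 at the median and -1.20 at the highest in 4 mm and -6.64 at the lowest, -4.30 at the median and -2.27 at the highest in 8 mm. The arrays of 8 mm did overlap, since replicate 16 of day 1 lay among those of day 21, and those of 4 mm did not. It fell by 3.29 ± 0.50 (adjusted p = 2.98e-07). Among the replication genes the helicase subunits fell, Mcm4 by 3.21 ± 0.68 (0.000145), Mcm5 by 3.13 ± 0.97 (0.011) and Mcm3 by 1.58 ± 0.46. Mcm2 (-0.75 ± 0.39), Mcm6 (-0.46 ± 0.39) and Mcm7 (-0.28 ± 0.36) did not pass. Ttk fell by 2.20 ± 0.47, Ccna2 by 1.98 ± 0.45, Prc1 by 1.85 ± 0.71, E2f1 by 1.82 ± 0.69, Tpx2 by 1.53, Aurka by 1.52 ± 0.47, Foxm1 by 1.51 ± 0.47, Plk1 by 1.41 ± 0.48 and Mki67 by 0.97 ± 0.34. For 5 of the 7 called genes with several probes no other probe passed: Ccna2 stood there at 0.82 ± 0.86 (adjusted p = 0.521), Plk1 at -0.11 ± 0.48 (0.896), Mki67 at -0.05 ± 0.33 (0.929), E2f1 at -0.73 ± 0.33 (0.099) and Mcm4 at -2.06 ± 0.85 (0.0679). Ccnb1 (-0.25 ± 0.38) and Bub1 (-0.18 ± 0.43), which had the smallest p of the rises at day 3, did not differ from day 1 by a call. With quantile normalization the split was 4 higher and 8 lower and the mitosis median -0.15, against -0.68.

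In contrast, 3 genes went the other way by day 21. Cdc25b, a phosphatase that activates cyclin B with Cdk1, was -2.73, -1.83 and -0.18 at day 1 in 4 mm and 1.05, -0.44, -0.82, -0.19 and -1.61 in 8 mm defects. At day 21 it was 0.39 at the lowest, 2.35 at the median and 3.08 at the highest in 4 mm and 2.60 at the lowest, 2.80 at the median and 3.22 at the highest in 8 mm defects. The day 21 arrays lay above the day 1 mean on 12 of 12, and the rise was 3.40 ± 0.59 (adjusted p = 4.72e-06). The step from day 5 to day 7 was 2.11 ± 0.48 (adjusted p = 0.00174). Tk1 rose by 1.72 ± 0.44 (adjusted p = 0.00173). Birc5, the survivin of the passenger complex, rose by 1.34 ± 0.50 (adjusted p = 0.0367), but did not pass without any 1 of replicates 13, 17 or 18 of 4 mm or 11 or 16 of 8 mm day 1 (adjusted p 0.0502 to 0.0864). The falls of E2f1 (0.0506 to 0.0836), Prc1 (0.0515 to 0.258), Tpx2 (0.0526 to 0.129), Plk1 (0.0501 to 0.0821) and Mki67 (0.0568 to 0.0628) were also lost without single day 1 arrays. All of them were lost without replicate 13 of 4 mm, where 10 of 16 calls passed. The others were replicates 17 and 18 of 4 mm and 11, 14 and 16 of 8 mm for E2f1, 17 of 4 mm and 11 to 14 of 8 mm for Prc1, 13 and 14 of 8 mm for Tpx2, 12 and 14 of 8 mm for Plk1, and 18 of 4 mm and 12 of 8 mm for Mki67.

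Other genes of the same processes were read from lists of general knowledge. Of 20 other replication genes, 1 rose at day 3, the DNA ligase Lig1 (0.96 ± 0.30), and 2 at day 5, Lig1 and the primase subunit Prim1 (1.16 ± 0.27), beside 5.97% and 17.3% of all genes called higher. From day 5 to day 7, 6 of the 20 fell: Uhrf1, Rfc4, Cdc45, Chaf1b, Pold1 and the flap endonuclease Fen1 (-1.02 ± 0.25), beside 5.78% of all genes. At day 21, 12 were lower than at day 1, where 12.8% of all genes were, among them Cdc6, the helicase loader (-3.86 ± 0.86), Chaf1b (-2.49 ± 0.38) and Fen1 (-1.94 ± 0.31). Of 27 other mitosis genes, 9 rose at day 3, with the spindle pole gene Aspm at 2.43 ± 0.44, the securin Pttg1 at 2.13 ± 0.34 and Kif22 at 2.05 ± 0.36; at day 5, 11 rose and 1 fell. The shares of all genes are those just given for these days, with 1.69% lower at day 5. The median differences at day 3 were 0.39 for the other replication and 1.17 for the other mitosis genes. Of 13 other G1 genes 0 were called at day 3 (1 at an unadjusted p under 0.05), Cdk4 rose and Myc fell at day 5, and Myc was at -2.10 ± 0.30 at day 21.

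Of 12 inhibitors and genes of rest, 3 rose at day 3, Cdkn1c, Cdkn2b (2.05 ± 0.61) and Cdkn2c (1.08 ± 0.30), beside 5.97% of all genes. Cdkn1c, the inhibitor p57, had means of -4.97 ± 0.22, -1.27 ± 0.40, 0.57 ± 0.72, 1.17 ± 0.80, 0.44 ± 1.26, 0.18 ± 0.75 and -0.15 ± 0.53 in 4 mm defects. In 8 mm defects they were -4.97 ± 0.46, -1.51 ± 1.11, 0.25 ± 0.71, -0.54 ± 2.33, 0.16 ± 1.52, 0.90 ± 1.74 and 0.52 ± 0.47. Cdkn1c rose by 3.58 ± 0.45 (adjusted p = 4.23e-09) at day 3 and 5.38 ± 0.44 at day 5 and stayed up at day 21 (5.16 ± 0.49), a course without the late fall of the cyclins. At day 5, 4 of the 12 rose and Cdkn2d fell (17.3% of all genes higher and 1.69% lower). At day 21, 4 were higher (13.4% of all genes) and Cdkn1b, the inhibitor p27, was lower, at -1.31 ± 0.38 (12.8%).

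Defect size made no called difference in any of the 48 genes. Comparing 8 with 4 mm, limma called 0 at each of the 7 days and over all days, and 0 for the interaction of size and day. At an unadjusted p under 0.05 the counts were 1, 0, 1, 13, 4, 4 and 8 from day 1 to day 21, 9 over all days and 6 for the interaction. Of all genes, 0%, 0%, 0%, 0.369%, 0.263%, 1.63% and 2.4% were called at these days. At day 7 this was 0.0563% higher and 0.313% lower, and at day 10 0.25% and 0.0125%. It was 0.413% over all days and 0.538% for the interaction. Day 7 had the highest unadjusted count, but the share of all genes at such a p was not counted. At day 7, 37 of the 48 genes had lower means in 8 mm defects, with a median difference of -0.80. Over all genes the median difference was -0.40, so most genes on the arrays were lower there too. The general level of the arrays was 0.44 in 4 mm and -0.15 in 8 mm defects (0.29 to 0.53 and -0.38 to 0.32 over the arrays). With each array centred the all-gene median was 0.02 and the medians of the mitosis and replication genes were -0.44 and -0.22.

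Cdk1 at day 7, given by array above, differed by -2.46 ± 0.73 (adjusted p = 0.102) between 8 and 4 mm; replicate 15 of 8 mm, at 0.45, lay within the 4 mm range, and the other 8 mm arrays lay below it. Without that array the difference passed, at -3.12 (adjusted p = 0.0274). Ccnb1 was -0.30, 0.77, 0.21, 0.71 and 0.44 in 4 mm and -1.53, -1.70, -0.72, -1.17 and 0.20 in 8 mm defects, again with replicate 15 of 8 mm within the 4 mm range, and differed by -1.35 ± 0.51 (adjusted p = 0.226). Pcna was 1.52, 1.08, 0.85, 1.01 and 1.39 in 4 mm and 0.06, 0.37, -6.64, 0.07 and 0.90 in 8 mm defects. Its difference of -2.22 ± 0.76 by limma (adjusted p = 0.175) leaned in part on replicate 13 of 8 mm, which stood at the floor. Of the other 8 mm arrays, only that at 0.90 lay within the 4 mm range, and the rest lay below it. The other Pcna probe had day 7 means of 1.05 in 4 mm and -0.07 in 8 mm defects. Racgap1 was -0.11, 1.01, -0.19, 0.84 and 0.81 in 4 mm and -0.26, -0.86, -3.09, -4.28 and -2.07 in 8 mm defects. These ranges did not overlap, and the difference was -2.58 ± 0.90 by limma (adjusted p = 0.186). The other Racgap1 probes had day 7 means of 0.30 and 1.17 in 4 mm and -0.39 and 0.09 in 8 mm defects. How many of all genes did not overlap was not counted. Kif23 differed by -1.52 ± 0.50 (adjusted p = 0.144). With array weights 12 genes passed at day 7, all lower in 8 mm defects: Bub1, Ccna2, Ccnb1, Cdc20, Cdk1, Kif20a, Kif23, Melk, Mki67, Nuf2, Racgap1 and Spc25. Without the 7 low arrays, none of which is a day 7 array, 6 passed: Bub1, Ccnb1, Cdk1, Kif23, Pcna and Racgap1. How many of all genes passed in these fits is not given, so the counts have no background beside them.

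At the other days the differences by size were scattered. The smallest p at day 1 was that of Prc1, at 2.34 ± 1.12 (adjusted p = 1), followed by Ccne2 and Nek2. Ccne1 and E2f1 did not overlap between the sizes at day 1, with Ccne1 at -1.17, -0.73 and -3.03 in 4 mm and 1.02, 0.37, 0.42, 0.26 and 0.47 in 8 mm defects. Their other probes did not bear this out. The day 1 means there were -0.03 in 4 mm and 0.15 in 8 mm for Ccne1, and 0.01 and -0.16 for E2f1. How many of all genes did not overlap was not counted at any day. At day 3 the smallest p was that of Cdc25b, at 1.01 ± 0.59 (adjusted p = 1), then Nusap1 and Kif23. At day 5 it was again Cdc25b, at 1.38 ± 0.53 (adjusted p = 1), then Tk1 and Mcm6. Ttk led at day 10, at -1.98 ± 0.65 (adjusted p = 0.209), then Rrm2 and Nuf2. Ttk passed without replicate 10 of 4 mm day 10, at -2.79 (adjusted p = 0.045). Mcm6 led at day 14, at 1.25 ± 0.50 (adjusted p = 0.233), then Cdca8 and Mcm3, and Kif23 did not overlap. At day 21 the lowest p were those of Ccne1, at -3.36 ± 1.16 (adjusted p = 0.1), Mcm3, at 1.59 ± 0.57 (adjusted p = 0.117), and Top2a, at -1.67 ± 0.60 (adjusted p = 0.121), and Cdc20 did not overlap. Mcm3 passed in limma at day 21 with each array centred (1.76, adjusted p = 0.041). The other probes of these genes differed less between the sizes at day 21. Without centring, their means in 4 and 8 mm defects were -0.70 and -0.45 for Mcm3, -2.81 and -2.80 for Top2a, and -1.57 and -2.41 for Ccne1. Over all days Cdc25b was higher in 8 mm defects by 0.99 ± 0.28 (adjusted p = 0.0968), followed by Cdca8 and Tk1, and it passed with each array centred (0.0239) or among genes above the floor (0.0427). For the interaction the smallest adjusted p were 0.225 for Rrm2, 0.285 for Ttk and 0.315 for Ccne1.

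Markers of cell types moved over the same days, and their part in the results was not tested. The mean log2 level of 7 of 7 neutrophil markers was 1.72 in 4 mm (1.64 to 1.85 over the arrays) and 1.48 in 8 mm defects (0.82 to 2.27) at day 1, -0.01 and 0.21 at day 3 and -1.13 and -1.49 at day 5. Against day 1, 1 of these 7 was called lower at day 3 and 4 at day 5, beside 0.469% and 1.69% of all genes. The mean of 5 of 5 macrophage markers went from -0.99 and -1.01 at day 1 to -0.01 and -0.27 at day 3. Of these, 3 rose at day 3, beside 5.97% of all genes. Fibroblast markers (5 of 5) went from -1.97 and -1.89 to -0.16 and -0.71, with 3 called. Endothelial markers (5 of 5) went from -1.68 and -1.70 to -0.12 and -0.68, with 1 called. Skeletal muscle markers (6 of 6) were high at day 1, at 4.80 (0.74 to 7.48) and 3.64 (-1.57 to 5.60), and fell to -2.53 and -0.71 at day 7 and -2.67 and -3.27 at day 21. Osteoblast and osteocyte markers (7 of 7), which define the bone of the label, stood at -3.26 and -1.95 at day 1 and 0.21 and 0.90 at day 21. Erythroid markers (6 of 8) stood at -0.44 and 0.12 at day 1, -1.93 and -0.83 at day 5 and 0.60 and 1.36 at day 21. Between the sizes at day 7, the mean of 4 of 5 brain markers was -1.36 in 4 mm and 1.37 in 8 mm defects. The latter was spread over -0.94 to 4.07. The mean of the fibroblast markers was 0.74 and 0.13, and 0 markers of either list were called by size at day 7.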

How the data were processed

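The deposited table holds 1 ratio per probe and array, made by the authors, for 41090 probes. For 87.8% of the probes the median over the 93 arrays is within 0.01 of 1, no probe has a median above 1, and 13.4% of values stand at the lowest ratio, 0.01. Total RNA was labelled with Cy3, per the labels' protocols. As scanner, background correction and between-array scaling were not given in the sources used here, the scale of the ratios between arrays stays unknown and no signal over background can be given; the number of arrays limits the precision.

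The design had assumed log values; since the table held ratios, log2 was taken with no pseudocount. Day and size in the titles gave 14 groups, with the rat's number as the replicate name. Of the probes, 20932 had 1 gene symbol in the platform annotation, 0 several and 20158 none; 17424 were matched through RefSeq accessions to GRCr8, and 2316 symbols changed. Where a gene had more than 1 probe (3880 genes), that with the largest interquartile range stood for it; 28 of the 48 genes described had 1 probe. One model of the 14 groups was fitted to 15975 genes with limma 3.58.1 in R 4.3.3 (lmFit, eBayes, prior df 1.9), with contrasts that weight both sizes equally, two-sided tests and Benjamini-Hochberg adjustment over all genes in a comparison at 0.05. The code was tested on simulated data. Neighbouring steps share the arrays of a day.

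The genes and all lists were chosen with earlier results of these data known. Each measured gene is named at least once; 17 genes that stand for the steps of the cycle are given in every group, and in each comparison the 3 largest rises and falls past the threshold, or the 3 smallest p where none passed. Genes called in a comparison between days that no other of their probes bore out are named beside it. Alternatives were centring, quantile normalization, the mean of all probes, raising ratios under 0.25, genes above the floor, array weights, a block for the rat number, leaving out the 7 low arrays and leaving out in turn each of 27 arrays in groups of 3 to 5; the probe with the fewest floor values was added after seeing the data.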

Additional observations from a re-analysis of the deposited data

Results flagged for a closer look

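A value was marked where the highest or lowest array of a group of 4 to 10 stood apart from the rest by Dixon's criterion. Each set looked at was a gene, class mean or gap within a group, and 25 of 200 sets held such a value. The criterion marks about 1 in 20 sets of independent, normally spread values. The sets here share arrays and include floor values, so that rate is no fair yardstick for them. No cause was weighed.

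Replicate 17 of 4 mm day 14, an array with 23.1% of values at the floor, was the lowest of its 5 for E2f1 (-6.64), Mcm2 (-3.22), Ccnb1 (-2.11), Bub1 (-2.08), Top2a (-3.79), Mki67 (-2.63) and Foxm1 (-6.13). At day 7, replicate 15 of 8 mm stood above the other 4 arrays for Bub1 (0.20) and Top2a (0.65), and replicate 15 of 4 mm lay lowest for Foxm1 (-4.11). At the floor of -6.64, and alone there in their groups, were Ccne1 at day 3 (4 mm, replicate 17) and day 21 (4 mm, replicate 13), Ccne2 at day 14 (8 mm, replicate 15), Pcna at day 7 (8 mm, replicate 13) and Aurkb at day 1 (8 mm, replicate 16). Mcm5 was alone at the floor at day 7 in both sizes (4 mm, replicate 13, and 8 mm, replicate 12) and at day 10 in 4 mm (replicate 10). Replicate 10 of 4 mm day 10, 1 of the 7 low arrays, was also lowest for Mcm2 (-2.50). The remaining values were Rrm2 in replicate 13 of 8 mm day 1 (-2.44), Bub1 in replicate 15 of 8 mm day 14 (-2.36), Top2a in replicate 15 of 8 mm day 21 (-6.06), Mki67 in replicate 15 of 4 mm day 21 (-4.84) and, as the one high value at day 1, Ccne1 in replicate 11 of 8 mm (1.02). The replication minus mitosis gap was lowest in replicate 11 of 8 mm day 10, at -0.67, where the next array was at 0.33.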

How the results depend on the processing

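The rise at days 3 and 5 and the fall at day 21 kept their direction in the counts under the alternatives run. The causes of the changes below were not tested. Shares of all genes called under the alternatives are not given, so the counts below have no background beside them. With array weights, 30 genes were called at day 3 against day 1, 3 at day 5 against day 3, 18 at day 7 against day 5, 1 at day 10 against day 7, 9 at day 21 against day 14, 12 by size at day 7, 1 by size at day 21 and 2 for the interaction. With quantile normalization there were 4, 14 and 0 at day 5 against day 3, day 7 against day 5 and day 21 against day 14, and with ratios under 0.25 raised 1, 13 and 0, with 2 at day 14 against day 10. With each array centred there was 1 at day 10 against day 7, 2 at day 14 against day 10, 1 by size at day 21 and 1 by size over all days. Among the 20 genes above the floor, fewer genes being tested, 13 were called at day 5 and 8 at day 21 against day 1, 4 at day 7 against day 5, 2 at day 21 against day 14, 19 and 16 over the days in 4 and 8 mm, and 1 by size over all days, and the replication minus mitosis gap of 8 mm day 14 was 0.25. Without the 7 low arrays there were 13 at day 7 against day 5, 5 at day 14 against day 10, 9 at day 21 against day 14 and 6 by size at day 7. The other probe reversed Rrm1 (day 14 against day 1, 0.67), Ccne2 (day 10 against day 7, 0.62), E2f1 (day 14 against day 10, 0.23) and Rrm2 (size at day 10, 0.060).

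The rat number was tried as a replicate block, in which arrays of the same number shared a term across days. It is thus not a model of pairing within a day. Deviations of 34 same-numbered pairs of a day had a median correlation of 0.018 (-0.403 to 0.328, with 13 above 0.1). For 316 pairs of a day with different numbers it was 0.005 (-0.492 to 0.568, with 87 above 0.1). These correlations cannot tell whether same-numbered samples of a day come from 1 animal. With the block 3 genes were called at day 7 and 6 at day 10 against day 1; counts of the other comparisons stayed within 1.5 times.

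Leaving out single arrays gave 16 to 22 calls at day 3, 15 to 23 at day 5, 7 to 15 at day 7, 5 to 13 at day 10, 5 to 9 at day 14 and 10 to 18 at day 21 against day 1. For steps between days it gave 0 at day 5 against day 3, 4 to 10 at day 7, 0 to 1 at day 10, 0 to 2 at day 14 and 5 to 10 at day 21, for size 0 to 1 at days 7 and 10 and 0 elsewhere, and over the days 30 to 34 in 4 mm and 32 to 35 in 8 mm. Of the named values, 731 kept their direction and side of the threshold under other settings, 20 came to pass, 49 no longer passed and 4 reversed; 28 of the 48 genes touch the floor, which limits their late values.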
